A study of Mus musculus with 24 samples.

Results

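The 10 genes described here encode the core of the mechanistic target of rapamycin (mTOR) complexes and their nearest regulators and substrates, and they were taken by symbol from the gene list of the count table: Mtor, Rptor, Rictor, Mlst8, Deptor, Tsc1, Tsc2, Rheb, Eif4ebp1 and Rps6kb1. All 10 were found once each among the 55421 genes of the table, and all 10 were among the 13583 genes with enough counts to be tested. Hepatocytes were isolated from male mice by liver perfusion and density-gradient centrifugation, and polyadenylated RNA was sequenced from 24 mice in 4 groups of 6. The question was how age changes the response of the liver to a high-fat diet (HFD), in a study that also asked about the mTOR inhibitor rapamycin. Mice given rapamycin were not analysed here.

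Young ND and young HFD mice were C57BL/6N at 6 months of age, and old ND and old HFD mice were C57BL/6J at 24 months of age, per the labels. All groups stayed on their diet for 9 weeks, with HFD giving 60% of energy from fat and ND a normal diet. Age and substrain therefore cannot be told apart in any comparison of old with young mice. The labels place the mice in 2 batches. Each batch held 3 mice of each group except old ND, which had 2 in batch 1 and 4 in batch 2.

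The kinase mTOR works in a pair of complexes. In mTORC1 it is joined by Raptor and promotes protein and lipid synthesis and restrains autophagy when amino acids, insulin and energy are plentiful, and in mTORC2 it is joined by Rictor and phosphorylates Akt. In the liver, mTORC1 links feeding and insulin to ribosome production and lipogenesis. Much of this control acts on protein phosphorylation and on localization at the lysosome, which RNA levels do not show.

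Total counts ranged from 9200332 to 22185069 per mouse. Old HFD replicate 2 stood apart from its group, with 14905 genes detected against 17415 to 20289 in the other old mice and a median absolute deviation of 0.569 log2 units from its group's medians, the largest of the 24. In 3 libraries over 15% of counts came from mitochondrial genes, namely old ND replicate 4 (30.6%), old HFD replicate 4 (21.8%) and old HFD replicate 6 (19.1%). The 6 hepatocyte markers together held 41720 to 154200 CPM (read counts scaled to an equal library size) in every mouse. The summed level of 10 immune markers was 2.62 to 61.1 CPM in young ND and 15.8 to 161.1 in young HFD, and in old mice it was 51.7 to 936.8 on ND and 59.4 to 552.3 on HFD. The 3 libraries of high mitochondrial share had the highest immune sums of their groups. These were 936.8 CPM in old ND replicate 4, and 378.1 and 552.3 in old HFD replicates 4 and 6. Old ND replicate 4 also had the lowest hepatocyte sum. Fits without these libraries therefore leave out both features. Cd79a, a B cell marker, was at 0 in all young ND mice.

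Among the 10 genes, 8 had a promoter window in the RefSeq sequences of GRCm38.p6, while Deptor and Eif4ebp1 were without an entry. The 4 genes called in any comparison below were each called as lower, but Rps6kb1 in a different comparison from the others. Their windows are shown. Each holds the 250 bases before the RefSeq start, 5′ to 3′ on the gene's strand, with capitals marking matches on either strand to 6 motifs. These were the E-box CACGTG, the CCAAT box, the motif CCGGAAGT of ETS family factors, the part CGCATGC of the NRF1 motif, the cyclic AMP response element TGACGTCA and the ZNF143 motif.
Mtor: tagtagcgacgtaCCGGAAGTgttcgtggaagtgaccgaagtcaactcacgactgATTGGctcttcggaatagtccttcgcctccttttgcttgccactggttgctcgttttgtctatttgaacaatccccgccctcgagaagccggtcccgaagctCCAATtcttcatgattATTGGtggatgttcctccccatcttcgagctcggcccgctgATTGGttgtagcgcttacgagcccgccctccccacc
Rptor: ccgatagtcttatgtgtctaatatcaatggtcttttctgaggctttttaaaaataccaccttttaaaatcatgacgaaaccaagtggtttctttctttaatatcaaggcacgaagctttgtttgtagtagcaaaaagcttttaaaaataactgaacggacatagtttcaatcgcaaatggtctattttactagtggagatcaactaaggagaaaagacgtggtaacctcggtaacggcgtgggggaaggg
Tsc2: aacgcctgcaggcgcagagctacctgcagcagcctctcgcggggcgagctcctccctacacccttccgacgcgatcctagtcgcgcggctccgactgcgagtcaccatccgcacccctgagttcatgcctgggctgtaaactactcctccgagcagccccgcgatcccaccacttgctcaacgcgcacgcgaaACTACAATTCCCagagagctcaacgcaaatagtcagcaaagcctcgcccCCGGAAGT
Rps6kb1: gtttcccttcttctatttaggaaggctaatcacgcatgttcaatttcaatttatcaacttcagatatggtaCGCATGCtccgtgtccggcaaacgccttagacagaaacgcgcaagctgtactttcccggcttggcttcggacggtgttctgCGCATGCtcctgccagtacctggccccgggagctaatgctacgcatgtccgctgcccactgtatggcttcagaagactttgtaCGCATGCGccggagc
The Mtor window (chr4:148448332-148448581, plus strand) held 4 CCAAT boxes and 1 CCGGAAGT. Tsc2 (chr17:24632628-24632877, minus strand) held 1 CCGGAAGT and 1 ZNF143 motif, and the start of the divergently transcribed gene Nthl1 lies 50 bases from that of Tsc2. In the Rps6kb1 window (chr11:86544808-86545057, minus strand) there were 4 matches to CGCATGC, of which 2 overlap on opposite strands in CGCATGCG. The Rptor window (chr11:119602655-119602904, plus strand) held none of the 6, and its GC content was 37.6% against a median of 52.4% over all windows. Of 32851 windows of the same length, 33.8% held CCAAT, 6.02% CACGTG, 3.02% CGCATGC, 2.88% CCGGAAGT, 1.55% TGACGTCA and 0.253% the ZNF143 motif.

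Levels were compared between genes per length, as CPM divided by kilobases of annotated exon, over the 24 mice. Deptor, an inhibitory subunit, was the most abundant at 25.7 ± 4.06 CPM per kilobase (SD, n = 24), above Eif4ebp1 at 11.5 ± 2.09 in 24 of 24 mice. Rheb (4.8 ± 1.21) and Mtor (4.25 ± 1.01) followed and did not differ beyond their spread, with Rheb above Mtor in 14 of 24 mice. Rps6kb1 (3.69 ± 0.504) and Tsc2 (3.64 ± 0.875) were likewise close, in 1 order in 13 of 24 mice. Rptor (2.55 ± 0.587) and Tsc1 (2.35 ± 0.457) overlapped, and Mlst8 (1.46 ± 0.297) and Rictor (1.06 ± 0.222) were lowest. The order differed on the deposited FPKM scale, the authors' own measure per length. There Eif4ebp1 (1.63) and Deptor (1.58) were nearly equal, Mlst8 (1.33) was the third, Mtor (0.401) lay below Tsc1 (0.569) in 23 of 24 mice, and Rptor (0.118) was the lowest, below Rictor (0.199) in 24 of 24 mice. Because the scales disagree on Rptor, Mlst8 and Mtor, levels are compared within each gene from here on, in CPM.

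Mtor, the kinase itself (chromosome 4, 148448611 to 148557683, GRCm38), had 46.2, 50.1 and 52.9 CPM (lowest, median and highest mouse) in young ND and 36.8, 44.8 and 52.3 in young HFD. In old ND the values were 29.9, 46.6 and 58.0 CPM, and in old HFD 21.7, 30.9 and 47.3. Young ND mice were tightly grouped, and the 3 lowest of the 24 were all old HFD mice, namely replicate 2 (21.7 CPM) and the 2 with high mitochondrial shares (23.7 and 23.8 CPM). The lowest old ND mouse, at 29.9 CPM, was also the one with a high mitochondrial share. Mlst8, a small subunit of both complexes (chromosome 17, 24473551 to 24479078), had 33 to 156 counts per mouse, with medians of 6.87 and 7.03 CPM in young mice on ND and HFD and 6.17 and 5.96 in old mice. Its ranges overlapped among all groups, and its lowest value, 2.54 CPM, was again in old HFD replicate 2. The gene shares 997 exon bases (22.5% of its exon length) with Bricd5 on the other strand, but Bricd5 had 0 counts over the 24 mice.

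Rptor, which encodes the substrate-recruiting subunit of mTORC1 (chromosome 11, 119602905 to 119899576), had 36.4, 42.0 and 43.8 CPM in young ND and 32.7, 36.4 and 43.5 in young HFD. Old ND mice had 25.7, 35.9 and 41.1 CPM and old HFD mice 8.60, 27.4 and 33.1. Every old HFD mouse was below every young ND mouse. Rictor, the defining subunit of mTORC2 (chromosome 15, 6708379 to 6800401), had 16.7, 19.9 and 22.3 CPM in young ND and 12.7, 16.1 and 17.9 in young HFD, against 18.1, 20.5 and 25.3 in old ND and 6.61, 16.7 and 19.5 in old HFD. Its medians were lower on HFD than on ND at both ages, with overlapping ranges. Deptor, an inhibitor that binds mTOR (chromosome 15, 55112317 to 55259271), had 240.5, 247.1 and 301.0 CPM in young ND and 202.6, 222.2 and 252.3 in young HFD. Among old mice it had 133.5, 222.3 and 283.3 CPM on ND and 178.8, 218.0 and 224.9 on HFD. The lowest Deptor value of all belonged to the old ND mouse with 30.6% mitochondrial counts.

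Tsc2, the GTPase-activating subunit that switches Rheb off (chromosome 17, 24595816 to 24632630), had 35.9, 40.8 and 46.1 CPM in young ND and 30.9, 35.0 and 39.5 in young HFD. Old ND mice had 33.5, 38.9 and 50.8 CPM and old HFD mice 10.98, 25.7 and 33.3. Here the old HFD mice lay below all young ND and all old ND mice. Pkd1 on the other strand shares 693 exon bases with Tsc2 (7.2% of its exon length) and had 4869 counts over the 24 mice against 13319 for Tsc2, and because strand handling is not given in the sources used here, reads in the shared stretch cannot be assigned to either gene with certainty. Tsc1, the partner that stabilizes Tsc2 (chromosome 2, 28641228 to 28691167), had medians of 29.9 and 28.0 CPM in young mice on ND and HFD and 29.5 and 28.2 in old mice on ND and HFD, and a range of 11.9 to 36.0 in old HFD. Rheb, the small GTPase that activates mTORC1 (chromosome 5, 24802823 to 24842624), had medians of 36.1 and 37.0 CPM in young mice on ND and HFD and 33.5 and 38.9 in old mice, and its highest value, 74.1 CPM, was in old HFD replicate 2, which also had the highest Eif4ebp1 value, 32.9 CPM.

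Eif4ebp1, a translation repressor that mTORC1 inactivates (chromosome 8, 27260329 to 27276674), had medians of 27.8 and 22.9 CPM in young mice on ND and HFD and 25.3 and 24.7 in old mice, and all 4 ranges overlapped. Rps6kb1, the S6 kinase that mTORC1 activates (chromosome 11, 86498871 to 86544805), had 32.7, 36.8 and 39.1 CPM in young ND and 26.4, 27.9 and 31.8 in young HFD. The old mice had 27.5, 32.7 and 38.6 CPM on ND and 22.7, 33.0 and 34.5 on HFD. All young HFD mice were below all young ND mice. The neighbouring gene Rnft1 shares 155 exon bases with Rps6kb1 on the other strand (1.79% of its exon length) and had 14199 counts over the 24 mice against 11933 for Rps6kb1.

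**Figure D1:**
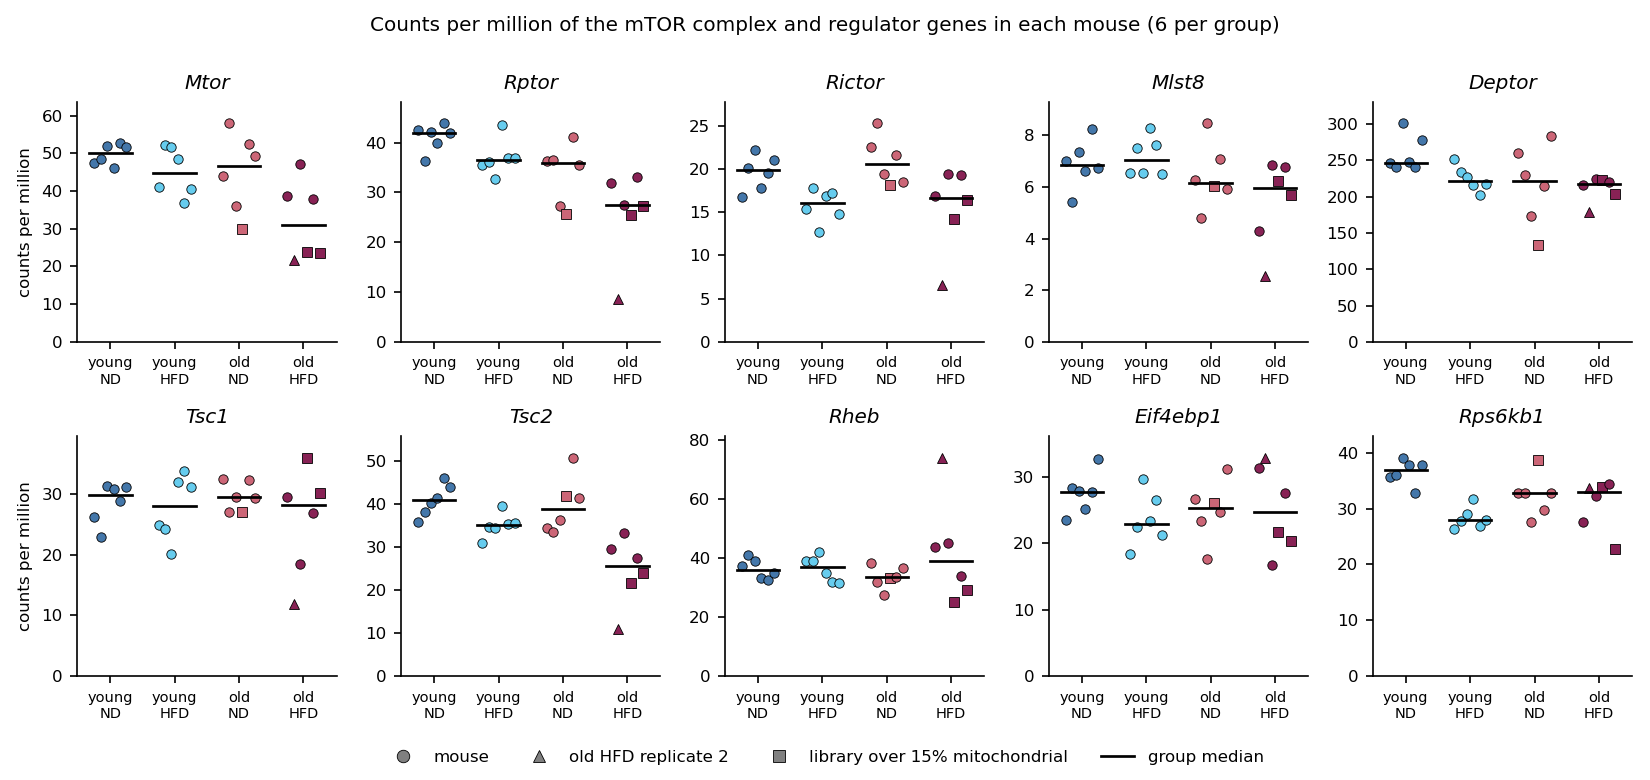
CPM (vertical axes, from 0) of each of the 10 genes in each mouse, by group, with black bars at group medians, a triangle for old HFD replicate 2 and squares for the 3 libraries with over 15% mitochondrial counts. The triangle is the lowest point of the panels for Mtor, Rptor, Rictor, Mlst8, Tsc1 and Tsc2 and the highest for Rheb, while the Rps6kb1 panel shows young HFD mice at 26.4 to 31.8 below young ND mice at 32.7 to 39.1.

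Spread within groups differed among the genes. In young ND the coefficient of variation was 5.57% for Mtor, 6.2% for Rps6kb1 and 6.38% for Rptor, and at most 13.4% for any of the 10 (Mlst8). In old HFD it was 30.8% to 34.4% for Mtor, Rptor, Rictor, Mlst8, Tsc1 and Tsc2, and 42.0% for Rheb. Eif4ebp1 had 25.8% and Rps6kb1 15.2% in old HFD, while Deptor had 8.29% there against 9.61% in young ND and 25.6% in old ND. Leaving out old HFD replicate 2 brought Rptor from 25.6 ± 8.82 CPM (SD, n = 6) to 29.0 ± 3.24 (n = 5) and Rheb from 41.9 ± 17.6 to 35.5 ± 8.74. The SD fell from 4.78 to 2.19 CPM for Rictor, from 1.68 to 1.05 for Mlst8, from 8.77 to 6.38 for Tsc1 and from 7.80 to 4.63 for Tsc2. Mtor kept its wide spread, at 34.3 ± 10.3 CPM without that mouse against 32.2 ± 10.6 with it.

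On HFD in young mice, Rps6kb1 fell and no other of the 10 genes passed the test. Its log2 fold change was -0.37 ± 0.10 (SE), with an adjusted p of 0.0495 (edgeR quasi-likelihood F test, Benjamini-Hochberg over all 13583 genes). Over all genes 1.59% fell and 1.91% rose in this comparison, and 4.83% separated the groups without overlap, as 1 of the 10 did. The value was -0.41 in batch 1 and -0.30 in batch 2, neither called alone. The call lay close to the threshold. It was lost in 20 of 24 fits that left out 1 mouse and held without young HFD replicate 4, old ND replicate 3, old HFD replicate 2 or old HFD replicate 6, over adjusted p of 0.0293 to 0.167 (edgeR) and log2 fold changes of -0.40 to -0.31. It also held with DESeq2 (adjusted p = 0.0223), without the 3 libraries of high mitochondrial share (edgeR adjusted p = 0.0151) and without these and old HFD replicate 2 (-0.35, edgeR adjusted p = 0.00546). The call was lost by limma on FPKM (limma adjusted p = 0.0974) and with a replicate block in place of batch (edgeR adjusted p = 0.0651). It was lost as well without the batch term, with RLE normalization and with no count filter. The remaining genes had log2 fold changes between -0.31 (Rictor, SE 0.17) and 0.06 (Mlst8, SE 0.18), 9 of the 10 were below 0, and the median was -0.18 against 0.01 over all genes tested. Of the markers of other cells, 1 of 8 immune, 1 of 4 endothelial and 1 of 4 stellate genes tested rose on HFD in young mice. None of these 16 markers was below 0, and the median log2 fold changes were 2.22 for immune, 1.48 for endothelial and 1.62 for stellate markers. Their part in the values of the 10 genes was not tested. Since hepatocytes were sequenced in bulk, fewer cells with a transcript and less transcript per cell cannot be told apart here or below.

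On HFD in old mice, Tsc2 fell. Its log2 fold change was -0.67 ± 0.17 (SE, edgeR adjusted p = 0.0307), and the same direction was seen in batch 1 (-0.50) and batch 2 (-0.79). Of all genes 1.64% fell, 1.37% rose and 1.26% separated the groups, and Tsc2 was 1 of 10 here in falling and 1 of 10 in separating the groups. Without old HFD replicate 2 the fall was -0.53 (edgeR adjusted p = 0.0192). Without the 3 libraries of high mitochondrial share it was -0.58 (edgeR adjusted p = 0.0967), and without all 4 of these libraries -0.34 (edgeR adjusted p = 0.118), so the call was lost with them left out. It was also lost in 6 single omissions, of old ND replicates 1, 2, 5 and 6 and of old HFD replicates 4 and 6, with an adjusted p of at most 0.071 (edgeR) and a log2 fold change of -0.59 to -0.69. With only the groups compared in the fit, Tsc2 was not called either. Mtor had -0.52 ± 0.17 (edgeR adjusted p = 0.0805), with -0.55 in both batches. It passed with DESeq2 and batch (-0.50, DESeq2 adjusted p = 0.0361) but not by limma on FPKM (limma adjusted p = 0.126). In edgeR it passed on leaving out old HFD replicate 3 (-0.61, edgeR adjusted p = 0.0355), and without the 4 libraries it was -0.26 (edgeR adjusted p = 0.339). Rictor had -0.43 ± 0.17 and Rptor -0.39 ± 0.19, and 8 of the 10 were below 0, with a median of -0.21 against -0.01 over all genes. Without old HFD replicate 2 Rictor had -0.28, Rptor -0.22 and Mlst8 -0.10, and the median of the 10 was -0.10. Rheb had 0.21 ± 0.14, which came to 0.04 without old HFD replicate 2. The 8 immune markers tested had a median log2 fold change of -0.27 in this comparison.

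Between the ages, none of the 10 genes passed the test on either diet. On ND, 1.24% of all genes were lower and 7.26% higher in old mice and 3.8% separated the groups, as 0 of the 10 did. The log2 fold changes lay between -0.30 (Rptor, SE 0.19) and 0.09 (Rictor, SE 0.17). At an unadjusted p under 0.05 edgeR still gave 0 of the 10, beside 3020 of 13583 genes, and DESeq2 and limma on FPKM called 0 as well, beside 1676 and 87 genes. On HFD, 0.42% of all genes were lower and 1.82% higher in old mice and 0.802% separated the groups, as 0 of the 10 did. Here Rptor had -0.53 ± 0.19 (edgeR adjusted p = 0.126), Tsc2 -0.52 ± 0.16 (edgeR adjusted p = 0.0847), Mtor -0.49 ± 0.17 (edgeR adjusted p = 0.107) and Mlst8 -0.43 ± 0.18 (edgeR adjusted p = 0.179). These 4 were the ones of the 10 with an unadjusted p under 0.05, beside 2848 of 13583 genes. DESeq2 called 1 of the 10 (Tsc2) and 859 genes in all, and limma on FPKM 0 of the 10 and 60 in all. Without old HFD replicate 2 the same values were -0.35, -0.37, -0.39 and -0.29, and without the 3 libraries of high mitochondrial share as well they were -0.27, -0.20, -0.16 and -0.25. Leaving out old HFD replicate 3 made Mtor (-0.62, edgeR adjusted p = 0.0315) and Tsc2 (-0.66, edgeR adjusted p = 0.017) pass, and leaving out old HFD replicate 1 Tsc2 (-0.60, edgeR adjusted p = 0.0408). Immune, endothelial and stellate markers were called higher with age on ND for 7 of 8, 3 of 4 and 3 of 4 genes tested. On HFD none of these markers was called, and the medians were 1.03 for immune, 0.05 for endothelial and 0.31 for stellate markers. Their part in the values of the 10 genes was not tested.

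Old HFD mice differed from young ND mice by age, substrain and diet together, and in this comparison Tsc2, Rptor and Mtor fell. The log2 fold changes were -0.74 ± 0.16 for Tsc2 (SE, edgeR adjusted p = 0.00248), -0.69 ± 0.19 for Rptor (edgeR adjusted p = 0.0105) and -0.64 ± 0.17 for Mtor (edgeR adjusted p = 0.00739). Of all genes 12.9% fell and 17.3% rose, so that 3 of 10 stands against a broad background, and 7.26% of all genes separated the groups, as 3 of the 10 did (Rptor, Tsc2 and Deptor). Both batches had the same direction, with -0.65 and -0.84 for Tsc2, -0.85 and -0.54 for Rptor, and -0.48 and -0.81 for Mtor. Deptor, with -0.29 ± 0.13 (edgeR adjusted p = 0.0937), did not pass although its ranges were apart. The other values lay between -0.37 (Mlst8, SE 0.18) and 0.16 (Rheb, SE 0.14), 9 of the 10 were below 0, and the median was -0.32 against 0.04 over all genes.

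The 3 calls were made in each of the 24 fits that left out 1 mouse, and with only these 2 groups in the fit Rptor was not called (-0.66, edgeR adjusted p = 0.0602). Without old HFD replicate 2 the falls were -0.59 for Tsc2, -0.51 for Rptor and -0.54 for Mtor, and Rps6kb1 (-0.28, edgeR adjusted p = 0.0496) passed too. Of the genes not called, Mlst8 came to -0.23, Rictor from -0.34 to -0.18, Tsc1 from -0.19 to -0.05, Rheb to -0.03 and Eif4ebp1 from -0.14 to -0.23. Mlst8 passed only without old HFD replicate 3 (-0.47, edgeR adjusted p = 0.0462). Without the 3 libraries of high mitochondrial share the same 3 genes passed, Mtor with an adjusted p of 0.0496 (edgeR). Without all 4 libraries Tsc2 (-0.41, edgeR adjusted p = 0.02) and Rptor (-0.41, edgeR adjusted p = 0.0234) passed and Mtor did not (-0.29, edgeR adjusted p = 0.146). Immune, endothelial and stellate markers were called higher in old HFD for 8 of 8, 4 of 4 and 3 of 4 genes tested, and the hepatocyte markers Cps1 and Hnf4a were lower and Apoa1 higher. Whether these shifts have a part in the falls was not tested.

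**Figure D2:**
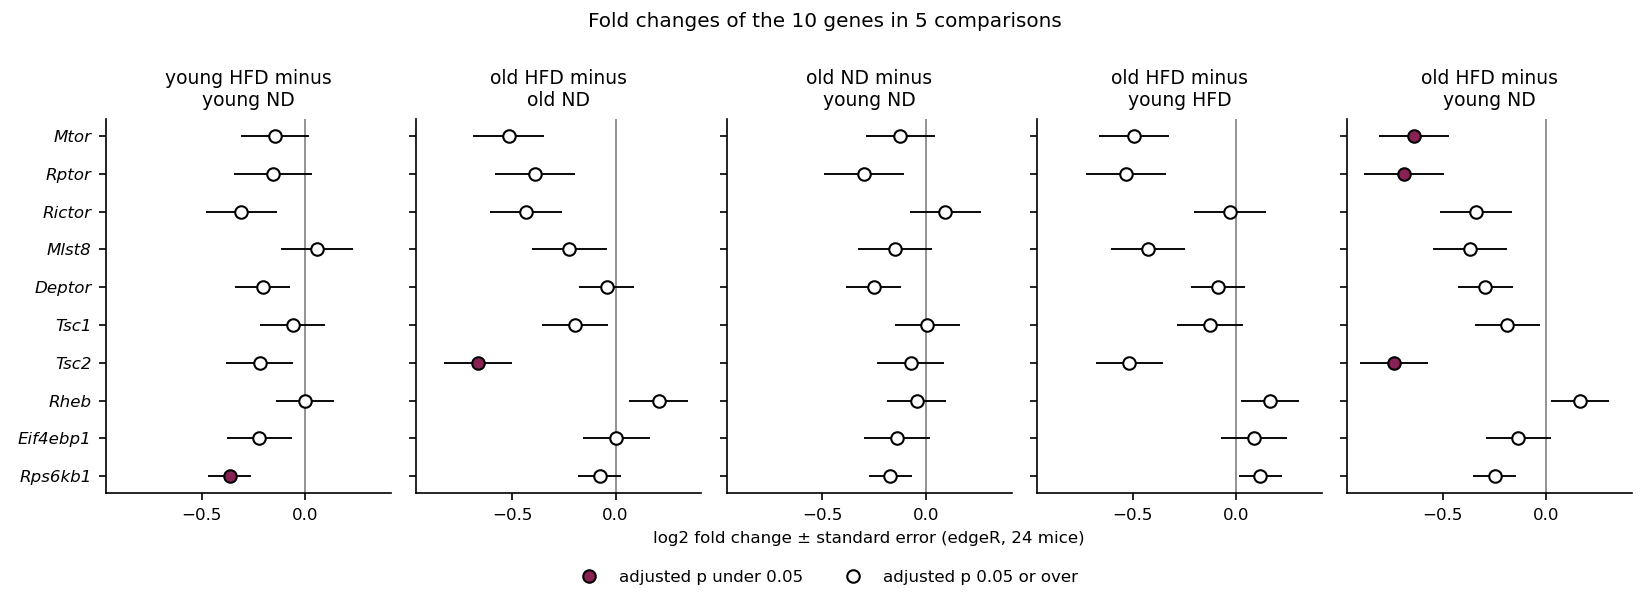
Log2 fold changes (horizontal axes) with standard errors of the 10 genes in 5 comparisons, from 1 edgeR model of 24 mice, with filled points where the adjusted p was under 0.05. Filled points are Rps6kb1 for HFD in young mice, Tsc2 for HFD in old mice, and Mtor, Rptor and Tsc2 for old HFD against young ND. Panels share groups of mice and are not independent.

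**Figure D3:**
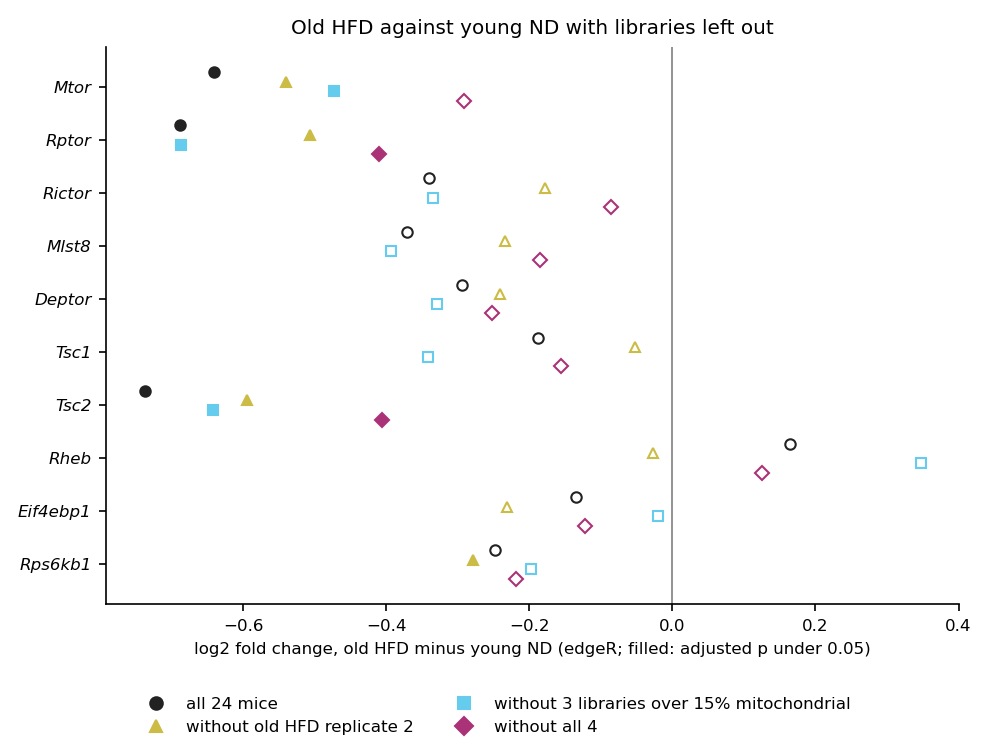
Log2 fold change of old HFD minus young ND (horizontal axis) for the 10 genes with all 24 mice, without old HFD replicate 2, without the 3 libraries over 15% mitochondrial, and without all 4, with filled symbols where the edgeR adjusted p was under 0.05. Tsc2 moves from -0.74 to -0.41 and stays filled, Mtor from -0.64 to -0.29 and does not.

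The difference of the diet responses between old and young mice was tested as an interaction. It was called for none of the 10 genes and for 0% of all genes by edgeR, with 0 of the 10 and 1247 of 13583 genes at an unadjusted p under 0.05, and DESeq2 and limma on FPKM called 0 of the 10. DESeq2 called 4 genes in all. Tsc2 had the most negative estimate, -0.44 ± 0.23 (edgeR adjusted p = 0.554), and Rps6kb1 the most positive, 0.29 ± 0.15 (edgeR adjusted p = 0.554). The falls of Rps6kb1 in young mice and of Tsc2 in old mice are therefore not shown to differ between the ages.

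Within a mouse, the ratio of Rptor to Rictor counts needs no scaling between libraries and sets a transcript of mTORC1 against one of mTORC2. It was 2.12 ± 0.272 (SD, n = 6, range 1.81 to 2.53) in young ND and 2.35 ± 0.239 (2.02 to 2.58) in young HFD. In old ND it was 1.62 ± 0.24 (1.4 to 1.92) and in old HFD 1.63 ± 0.226 (1.3 to 1.88). Every old HFD mouse was below every young HFD mouse, while old and young ND mice overlapped slightly. On the log2 scale the old HFD mean was lower than that of young HFD by a difference of -0.54 (exact permutation of mice inside their batch, two-sided p = 0.005, adjusted p = 0.05 over 10 tests), and this p is the smallest the design allows. The difference on ND was -0.39 (exact permutation p = 0.0171, adjusted p = 0.0571), and between old HFD and young ND -0.38 (exact permutation p = 0.01, adjusted p = 0.05), so none was under the threshold of 0.05 after adjustment. A lone p of 0.005 comes to 0.05 over 10 tests, so 1 comparison by itself could not pass. Age on HFD and old HFD against young ND passed when mice were swapped across batches. Leaving out 1 mouse changed the outcome in 3 of 12 fits for age on ND and 1 of 12 for old HFD against young ND. Both batches gave differences of similar size, with -0.60 and -0.48 on HFD and -0.43 and -0.39 on ND. Diet moved the ratio by 0.16 in young mice (exact permutation p = 0.15, adjusted p = 0.375) and by 0.01 in old mice (exact permutation p = 0.94, adjusted p = 0.971). The ratio is of raw counts of genes of different length, so it does not give the proportion of the transcripts.

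**Figure D4:**
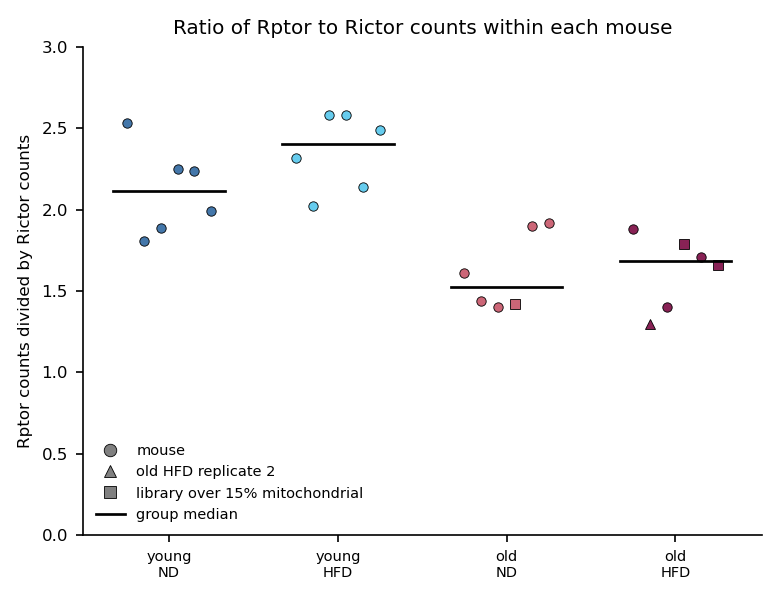
Rptor counts divided by Rictor counts (vertical axis, from 0) in each mouse by group, with black bars at medians, a triangle for old HFD replicate 2 and squares for libraries with over 15% mitochondrial counts. Young mice lie between 1.81 and 2.58 and old mice between 1.3 and 1.92.

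The ratio of Eif4ebp1 to Eif4e, the cap-binding factor it represses, was 0.682 ± 0.115 in young mice on ND and 0.616 ± 0.164 on HFD, and 0.769 ± 0.225 in old mice on ND and 0.794 ± 0.294 on HFD (SD, n = 6 each). The groups overlapped, and exact permutation p ranged from 0.22 to 0.971 over the 5 comparisons.

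Around the 10 genes, 78 others of the pathway were followed in 4 lists, of which 76 were tested. In old HFD against young ND, 2 of 8 tested genes for other subunits and assembly fell and 1 rose. These were Mapkap1, an mTORC2 subunit (-0.42, edgeR adjusted p = 0.0104), and Akt1s1, an mTORC1 inhibitor (-0.38, edgeR adjusted p = 0.0402), while Prr5l rose (2.42, SE 0.76, edgeR adjusted p = 0.0204) from 0 to 14 counts per young ND mouse to 4 to 35. For amino acid sensing 5 of 30 fell and 1 rose, led by Depdc5 (-0.53, edgeR adjusted p = 0.00366), Wdr59 (-0.51, edgeR adjusted p = 0.00564) and Seh1l (-0.39, edgeR adjusted p = 0.0166), which belong to the GATOR complexes. Of the inputs from insulin, energy and stress 7 of 20 fell and 1 rose, led by Pdpk1 (-0.62, edgeR adjusted p = 0.000737), a kinase that activates Akt and S6 kinase, and Prkaa2 (-0.84, edgeR adjusted p = 0.00214), a catalytic subunit of AMPK. Effectors and substrates fell in 4 of 18 and rose in 0, led by the autophagy gene Atg13 (-0.78, edgeR adjusted p = 0.000123), the translation factor Eif4g1 (-0.66, edgeR adjusted p = 0.00145) and the transcription factor Tfe3 (-0.61, edgeR adjusted p = 0.00594). The medians of the 4 lists were -0.21, -0.05, -0.10 and -0.16 against 0.04 over all genes. In total 18 of the 76 fell and 3 rose, where 12.9% of all genes fell and 17.3% rose. The number called, 21 with all mice, was 12 without the libraries of high mitochondrial share and 7 of 77 without old HFD replicate 2 as well, while over all genes it went from 4100 of 13583 to 2735 of 13827 and 1532 of 14105.

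In the other comparisons 0 to 2 of the 76 passed, beside shares of all genes that fell of 1.59% for HFD in young mice, 1.64% for HFD in old mice, 1.24% for age on ND and 0.42% for age on HFD. The shares of all genes that rose were 1.91%, 1.37%, 7.26% and 1.82% in the same order. HFD in young mice lowered Irs2, an adaptor of the insulin receptor (-1.06 ± 0.26 SE, edgeR adjusted p = 0.0251), with 12.6 to 31.4 CPM in young ND and 4.46 to 10.9 in young HFD. It was not called without young ND replicate 1, 2 or 3 or young HFD replicate 3, 5 or 6, by limma on FPKM or in either batch alone. In old mice on HFD, Atg13 (-0.45, edgeR adjusted p = 0.0369) and Tfe3 (-0.58, edgeR adjusted p = 0.0415) fell, and neither was called without the libraries of high mitochondrial share. On HFD, old mice had less Atg13 (-0.47, edgeR adjusted p = 0.0371) and Eif4g1 (-0.51, edgeR adjusted p = 0.0452) than young mice. Neither was called without old HFD replicate 2 or without the libraries of high mitochondrial share, and the number called was 0 to 7 over the 24 fits that left out 1 mouse, as it was 0 to 6 for HFD in old mice. Between the ages on ND none passed by edgeR, with 9 of 76 at an unadjusted p under 0.05 beside 3020 of 13583 genes. DESeq2 called 2 of them, beside 1676 genes, and limma on FPKM 0 of 72.

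Lrit1 and Nploc4 were among the 3 genes whose pattern over the 24 mice was most like that of Mtor, out of 13573 tested genes other than the 10. Their mean absolute differences of standardized log2 CPM from Mtor were 0.347 and 0.35. Among the 10, Rptor (0.5) and Tsc2 (0.503) were the most like Mtor and Eif4ebp1 (1.03) the least, and 306 tested genes were nearer to Mtor than Rptor was. Mice, libraries and depth are shared by all of these profiles. In old HFD against young ND, Lrit1 had a log2 fold change of -0.84 ± 0.23 (SE) and Nploc4 of -0.65 ± 0.13, values that come from the same mice by which these genes were chosen and are given as a description.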

How the data were processed

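RNA-seq of isolated hepatocytes was used from 24 mice, grouped by their sample labels. Counts per gene, deposited as whole numbers, were made per the labels and the study's methods with STAR 2.7.3a (2-pass, mm10) and HTSeq 0.11.2, and FPKM values, which the authors computed with CuffLinks. The FPKM table held 37789 genes and is labelled as adjusted between batches with ComBat. Handling of strand, duplicates and multi-mapped reads is not given in the sources used here.

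Counts were tested with edgeR 4.0.16 (R 4.3.3): TMM normalization, the default filter on low counts by group, 1 model of group and batch over 24 mice, quasi-likelihood F tests and Benjamini-Hochberg adjustment over 13583 genes, with an adjusted p under 0.05 as the call. CPM used TMM-scaled library sizes. Standard errors were taken from the fold change and its F. Ratios were tested with two-sided exact permutation within batches. Scripts were tested on simulated data. Alternatives were DESeq2 1.42.0, limma 3.58.1 on log2 FPKM with pseudocounts of 1 and 0.1 and a minimum FPKM of 0.1 in 6 mice, other normalization and filters, the groups alone, batches alone, a replicate block, and each mouse left out. Leaving out libraries over 15% mitochondrial was chosen after seeing the data. Total counts of 9200332 to 22185069 per mouse set the precision, and errors come from the spread between mice.

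The 10 genes and the pathway lists were chosen with earlier results of these data known. Named genes were all 10, the 3 of each pathway list with the smallest adjusted p among those called, and the 3 nearest to Mtor. Of these, 2 genes are not reported here. Markers covered hepatocytes and immune, endothelial, stellate and bile duct cells. The bile duct list had 1 of 4 genes tested and 0 called. Gene positions are from GENCODE for GRCm38, the mm10 build, and promoters from RefSeq for GRCm38.p6. Where the study's text gives other ages, no substrain or another normal diet, the labels were followed. Columns without a sample numbered 0.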

Additional observations from a re-analysis of the deposited data

Results flagged for a closer look

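Rptor in old HFD replicate 2, at 8.6 CPM, was far from the other old HFD mice, of which the nearest had 25.5 CPM. The gap was 0.692 of the group's range, above Dixon's 95% critical value for 6 samples. It was the only value past that limit among 48 groups of values examined, and chance flags about 1 in 20 groups. The same library had the fewest genes detected (14905) and the lowest mitochondrial share (4.26%) of the 24. Without it, Rptor in old HFD against young ND had a log2 fold change of -0.51 (edgeR adjusted p = 0.00308) in place of -0.69.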

How the results depend on the processing

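Of 830 fold changes of the 10 genes under alternatives other than leaving out 1 mouse, 796 kept their side of the threshold without a counted reversal. The rest were 21 that lost the call, 7 that gained it and 6 that reversed. A reversal was counted where the sign changed and the main value exceeded its standard error or the alternative was called. Other changes of sign, in main values within their standard error, are among the 796. All 6 counted reversals were in batch 2 alone: Tsc1 for HFD in old mice (0.087) and for old HFD against young ND (0.044), and Rheb for HFD in old mice (-0.14), age on HFD (-0.17), old HFD against young ND (-0.18) and the interaction (-0.13). Of 1440 with 1 mouse left out, 1406 kept their side of the threshold without a counted reversal, in the same sense. The 2 that reversed were Rheb for age on HFD (-0.026, with a range of -0.026 to 0.25 over the mice left out) and for old HFD against young ND (-0.026, range -0.026 to 0.28), both without old HFD replicate 2. The causes were not tested. Mtor, Rptor and Tsc2 for old HFD against young ND were 3 calls under edgeR with all groups, DESeq2 and limma on FPKM, 2 with only the groups compared (Rptor -0.66, edgeR adjusted p = 0.0602), and 0 in batch 1 alone and 1 in batch 2 alone, where fewer mice enter.

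For the 10 genes, Rps6kb1 for HFD in young mice was not called without the batch term, with RLE normalization, with no count filter, by limma on FPKM or in either batch alone (0 calls each), and with only the groups compared there were 2. For HFD in old mice there were 2 calls with DESeq2 and batch or with no count filter, and 0 with only the groups compared, by limma without a filter, in batch 1 alone and without the mitochondria-rich libraries, with or without old HFD replicate 2. For age on HFD there was 1 call with DESeq2 and batch and 3 with no count filter. Leaving out 1 mouse gave 0 to 1 calls for HFD in young mice, 0 to 2 for HFD in old mice and 0 to 2 for age on HFD.

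The replicate numbers shared by the groups were not taken to pair the mice. Same-numbered mice had correlations of -0.32 to 0.551 (mean 0.182, 21 of 36 over 0.1), and 20 of 72 best matches were to the own number. After batch means were subtracted, the mean correlation was -0.00199. With the replicate block in place of batch, the 10 genes had 0 calls for HFD in young mice (Rps6kb1, edgeR adjusted p = 0.0651), and all genes had 283 for HFD in young mice, 131 for age on HFD and 1 for the interaction, with 1 pathway list gene for age on ND and 1 for age on HFD. The block changed no other call of the 10 genes.

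Counts over all genes, in the order HFD in young mice, HFD in old mice, age on ND and age on HFD, were 475, 409, 1155 and 304, with 4100 for old HFD against young ND and 0 for the interaction. Without the batch term they were 174, 266, 628 and 116. With no count filter they were 1473, 1108, 2053 and 1235, and 587 for the interaction. With only the groups compared, HFD in young mice gave 2302, HFD in old mice 15, age on HFD 48 and old HFD against young ND 2094. By limma on log2(FPKM + 1) they were 202, 173, 87 and 60, with 2467 for old HFD against young ND. With a pseudocount of 0.1 they were 232, 214, 317, 75 and 2602, and without a filter 127, 108, 27, 29 and 2013. Batch 1 alone gave 130, 15, 93, 9 and 919, and batch 2 alone 9, 16, 2, 0 and 617. DESeq2 with batch gave 1255 and 1123 for HFD in young and old mice, 859 for age on HFD and 4 for the interaction. DESeq2 without batch gave 948 for HFD in old mice, 574 for age on HFD and 4 for the interaction. Without the mitochondria-rich libraries there were 992 for HFD in young mice, 718 for age on ND and 79 for age on HFD. Without old HFD replicate 2 as well there were 2192 for HFD in young mice, 32 for age on HFD and 1532 for old HFD against young ND. Leaving out 1 mouse gave 146 to 998, 84 to 823, 586 to 1592 and 40 to 813 in that order, and 0 to 1 for the interaction.

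Of the pathway list genes, 76 were tested by edgeR with all mice, 72 by limma with a filter, 78 with no filter, 73 to 76 with only the groups compared and 77 without the 4 libraries. Counts in the same order were 1, 2, 0 and 2, with 21 for old HFD against young ND. They were 1 for HFD in old mice and 0 for age on HFD without the batch term. With no count filter they were 2, 5, 3 and 6. With only the groups compared they were 8, 0, 3 and 0, with 12 for old HFD against young ND. By limma, with either pseudocount or without a filter, they were 0 for HFD in young mice, HFD in old mice and age on HFD, with 13 for old HFD against young ND. In each batch alone they were 0 for these 3 comparisons and 4 for old HFD against young ND. DESeq2 with batch gave 2, 7, 2 and 6, and without batch 7 for HFD in old mice, 1 for age on ND and 4 for age on HFD. Without the mitochondria-rich libraries they were 0 for HFD in old mice and for age on HFD, and 12 for old HFD against young ND. With old HFD replicate 2 also left out they were 9, 0, 4 and 0, and 7 for old HFD against young ND. Leaving out 1 mouse gave 0 to 4, 0 to 6, 0 to 2 and 0 to 7.

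The ratio of Rptor to Rictor passed for age on HFD (-0.54) and for old HFD against young ND (-0.38) when mice were swapped across batches (exact permutation, adjusted p = 0.0216 for both). Leaving out 1 mouse gave -0.45 to -0.34 for age on ND, -0.43 to -0.32 for old HFD against young ND and -0.58 to -0.48 for age on HFD. Without young ND replicate 2, age on ND and old HFD against young ND passed (-0.44 and -0.43, exact permutation adjusted p = 0.0476), and age on ND also passed without old ND replicate 5 (-0.44) or 6 (-0.45, exact permutation adjusted p = 0.0333 for both). The ratio of FPKM + 1 was not read, since the FPKM of both genes was at most 0.261 and the pseudocount sets the ratio. Depth limits Mlst8 most, with 33 to 156 counts per mouse. Only the groups compared could not be run for the interaction, which needs all 4 groups.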
